A study of Mus musculus with 6 samples.

Results

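Some stretches of the genome of mouse sensory neurons held many regions of open chromatin close together. To describe them, chromosomes 1 to 19 were divided into fixed windows of 200 kb, and windows overlapping 12 or more peaks of open chromatin were taken. These dense windows numbered 650 of 12175 windows (5.34%) and held 9848 of 42569 ATAC peaks (23.1%). Of the 650, 141 overlapped at most 3 protein-coding genes and are called gene-poor, and 509 overlapped 4 or more and are called gene-rich; of all windows, 80.0% overlapped at most 3 genes. Peak density chose the windows, so the ATAC counts below are a description, while acetylation and gene content were not used in the choice.

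The cells were TrkC neurons of the dorsal root ganglia (DRG) of mouse embryos at stage E11.5, all from the transgenic genotype Runx3-BAC-GFP-CB6, in which a bacterial artificial chromosome (BAC) of the Runx3 locus drives green fluorescent protein (GFP). Cells fixed with paraformaldehyde (PFA) were sorted for GFP, and 50000 were used per preparation. Open chromatin was mapped by ATAC-seq in 2 replicates and acetylated lysine 27 of histone H3 (H3K27ac) by ChIP-seq with antibody ab4729 in 2 replicates, and 2 input DNA samples were not used here. All samples share genotype, stage and sort, so no other condition is compared. The deposited data are 1 consensus list of peak positions per assay, without signal, depth or values per replicate, so differences cannot be set against replicate error. Intervals in parentheses are 95% Wilson intervals, which cover counting error only, and no test was run because neighbouring peaks are not independent.

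ATAC-seq marks DNA that a transposase can reach, such as active promoters, enhancers and sites bound by factors that open chromatin. H3K27ac marks the nucleosomes beside active promoters and enhancers, and open sites without it can be poised, bound by insulator or repressor proteins, or active in few of the cells. TrkC is the receptor for neurotrophin-3, and Runx3 is a transcription factor needed for the TrkC neurons that sense muscle stretch. Clusters of acetylated open sites are known from genes with complex regulation, such as those of developmental regulators.

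Of the 7 markers of TrkC sensory neurons, all overlapped ATAC and H3K27ac peaks, among them Ntrk3 (TrkC) with 7 ATAC and 4 H3K27ac peaks. Of the 4 motor neuron markers, Mnx1, Lhx3, Olig2 and Chat, all overlapped ATAC peaks and 0 overlapped H3K27ac. H3K27ac was also present at all 4 glial and neural crest markers on these chromosomes, 2 of 3 blood markers, 1 of 4 endothelial markers and 1 of 4 muscle and sclerotome markers. Peak lists hold no levels, so the share of other cells in the sort was not tested. Runx3 lay in a dense window, whereas the 3 windows of Ntrk3 held at most 7 ATAC peaks.

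The promoters below are shown because they stand for 3 states met inside gene-poor dense windows: open and acetylated, open in a window rich in H3K27ac but not itself acetylated, and open in a window without H3K27ac. Each runs from 250 bases before to 50 after a start, 5′ to 3′ on the gene's strand, from RefSeq (GRCm38.p6). Capitals mark CG dinucleotides, the target of DNA methylation in mammals.
Runx3 outer start: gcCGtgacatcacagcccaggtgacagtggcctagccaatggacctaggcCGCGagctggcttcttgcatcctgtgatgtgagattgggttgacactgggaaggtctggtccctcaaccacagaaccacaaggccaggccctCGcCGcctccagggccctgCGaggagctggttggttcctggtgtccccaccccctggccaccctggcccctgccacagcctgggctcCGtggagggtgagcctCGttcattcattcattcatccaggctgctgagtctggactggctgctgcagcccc
Runx3 inner start: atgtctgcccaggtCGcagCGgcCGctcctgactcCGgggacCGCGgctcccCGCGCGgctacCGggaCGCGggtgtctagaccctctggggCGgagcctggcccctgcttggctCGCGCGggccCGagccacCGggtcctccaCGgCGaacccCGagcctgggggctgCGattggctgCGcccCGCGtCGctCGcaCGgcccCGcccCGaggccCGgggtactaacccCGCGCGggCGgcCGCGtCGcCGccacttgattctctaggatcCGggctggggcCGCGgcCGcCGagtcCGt
Gse1 inner start: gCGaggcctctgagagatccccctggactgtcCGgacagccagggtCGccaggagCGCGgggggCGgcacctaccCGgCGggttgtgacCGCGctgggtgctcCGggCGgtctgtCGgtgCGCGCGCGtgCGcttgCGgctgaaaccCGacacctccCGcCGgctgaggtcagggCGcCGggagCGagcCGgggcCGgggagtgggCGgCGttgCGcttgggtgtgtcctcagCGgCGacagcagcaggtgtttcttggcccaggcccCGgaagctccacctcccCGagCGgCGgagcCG
Maml3: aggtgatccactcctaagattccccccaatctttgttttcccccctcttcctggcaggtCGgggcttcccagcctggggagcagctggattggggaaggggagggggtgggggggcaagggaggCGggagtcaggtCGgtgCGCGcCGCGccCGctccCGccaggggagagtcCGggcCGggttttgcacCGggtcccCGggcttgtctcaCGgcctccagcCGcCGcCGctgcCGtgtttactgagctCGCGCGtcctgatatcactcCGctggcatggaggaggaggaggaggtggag
Cd82: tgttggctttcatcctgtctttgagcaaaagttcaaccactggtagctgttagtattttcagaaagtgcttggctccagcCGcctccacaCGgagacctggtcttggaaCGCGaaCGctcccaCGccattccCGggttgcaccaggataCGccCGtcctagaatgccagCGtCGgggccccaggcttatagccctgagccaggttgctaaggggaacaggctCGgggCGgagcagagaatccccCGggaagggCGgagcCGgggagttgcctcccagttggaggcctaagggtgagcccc
Sez6l: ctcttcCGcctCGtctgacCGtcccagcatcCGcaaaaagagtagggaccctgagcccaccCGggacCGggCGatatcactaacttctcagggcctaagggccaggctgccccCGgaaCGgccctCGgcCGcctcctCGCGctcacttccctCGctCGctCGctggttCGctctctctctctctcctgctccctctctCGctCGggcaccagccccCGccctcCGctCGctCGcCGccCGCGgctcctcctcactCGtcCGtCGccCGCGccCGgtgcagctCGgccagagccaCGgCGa
The outer Runx3 promoter (chr4:135120395-135120694, plus strand) held 8 CG dinucleotides and met an ATAC peak of 323 bp and no H3K27ac peak. The inner one (chr4:135152295-135152594, plus strand) held 45 and met an ATAC peak of 873 bp inside an H3K27ac peak of 3012 bp. The Gse1 promoter shown is also that of a start inside the annotated gene (chr8:120537159-120537458, plus strand). It held 37 and the Maml3 promoter (chr3:52104957-52105256, minus strand) held 22, both within H3K27ac peaks, of 4878 and 3974 bp. The promoters of Cd82 (chr2:93462901-93463200, minus strand, 16 CG dinucleotides) and Sez6l (chr5:112577149-112577448, minus strand, 35) met ATAC peaks of 176 and 387 bp and no H3K27ac. Open promoters without the mark were therefore found both with few and with many CG dinucleotides.

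Over all RefSeq promoters of this length, 20085 from 16457 genes, the median number of CG dinucleotides was 14. It was 17 over the 4234 promoters in dense windows and 21 over the 264 in gene-poor ones. An ATAC peak met 66.3% of the promoters in dense windows and 55.7% of all promoters, and H3K27ac met 58.3% and 46.8%. The windows were chosen by ATAC peaks, so the ATAC share is a description. Among promoters with an ATAC peak, H3K27ac met 79.7% in dense windows and 77.4% outside them. Within dense windows the shares with ATAC were nearly the same in both classes, 66.3% gene-poor and 66.3% gene-rich. On either strand, the letters TGTGGT, the core of the motif that Runx proteins bind, stood in 13.3% of the dense-window promoters and in 14.8% of all, and among the sequences shown only in the outer Runx3 promoter. The letters CCGCCC, a GC box bound by Sp factors, stood in 58.1% and 47.0%. In CG content and GC boxes the dense-window promoters lay above all promoters, and in the Runx motif they did not. Among promoters with an ATAC peak this did not hold: inside and outside dense windows the median was 22 and 23 CG dinucleotides, the GC box stood in 70.6% and 71.1%, and the Runx motif in 11.7% and 10.3%.

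Dense windows held more H3K27ac peaks each than windows with fewer ATAC peaks, but not more per ATAC peak: they held 4101 of 19482 H3K27ac peaks (21.1%), beside 23.1% of the ATAC peaks. The median was 6 H3K27ac peaks per dense window (quartiles 4 and 8, maximum 18), against 1 over all windows, 2 over windows with at least 1 ATAC peak and 4 over the 487 windows with 10 or 11 ATAC peaks. Only 5 of 650 dense windows (0.769%) had no H3K27ac peak, against 24.3% of all windows with an ATAC peak. The share was already low just under the limit, 3.70% in windows with 10 or 11 ATAC peaks. H3K27ac peaks covered a median of 4.13% of a dense window, 2.90% of a gene-poor one and 4.34% of a gene-rich one. The median was 0.312% over all windows and 2.38% over windows with 10 or 11 ATAC peaks.

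The gene-poor windows came close to the gene-rich ones in H3K27ac peaks, with medians of 5 and 6. Among gene-rich windows, more genes went with more H3K27ac peaks (Spearman's rho 0.40 over 509 windows), but also with more ATAC peaks (rho 0.40). Among gene-poor windows rho between genes and H3K27ac peaks was -0.00 over 141. There gene number is limited to 0 to 3 by definition, which leaves little room for a relation. These correlations describe windows that share the same peak lists and carry no test. The windows with the most genes, 15 or more, had a median of 9 H3K27ac peaks, those with 1 gene had 5, and the 4 windows without a protein-coding gene had 3.5. Their median numbers of ATAC peaks were 18, 13 and 12.5.

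**Figure D1:**
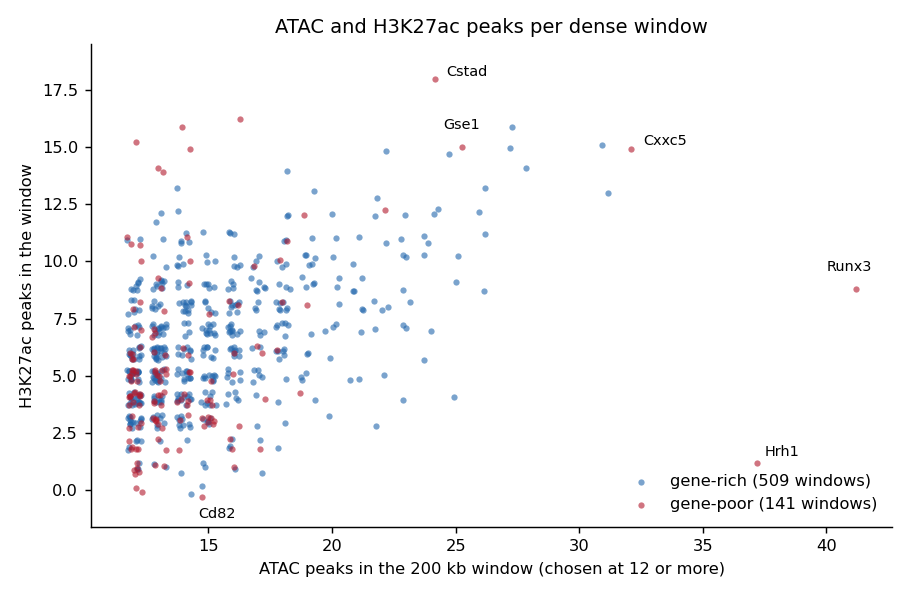
Each point is a dense window, with its number of ATAC peaks on the horizontal axis and of H3K27ac peaks on the vertical axis, moved slightly at random so that points do not hide each other. Red points are the 141 gene-poor and blue points the 509 gene-rich windows; the windows of Runx3 (41 ATAC peaks, 9 H3K27ac peaks) and Hrh1 (37 and 1) lie far to the right, and that of Cstad (24 and 18) at the top.

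Distal ATAC peaks, defined as those over 1 kb from every annotated end of a protein-coding gene, include candidate enhancers. In dense windows 1652 of 5974 distal ATAC peaks overlapped H3K27ac (27.7%, 26.5 to 28.8), where all distal ATAC peaks gave 21.9% and those of windows under 12 ATAC peaks 20.4%. Windows just outside the limit, with 11 ATAC peaks, numbered 202 and had 22.1% of distal peaks acetylated and a median of 4 H3K27ac peaks. Those just inside, with 12, numbered 147 and had 26.9% and a median of 5. Under each of 15 other settings, 3 of which alter only the gene classes, the share in dense windows stayed above the share outside them, by at least 5.57 percentage points.

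The higher share in dense windows was present both inside and between genes. Inside genes, 31.7% of distal peaks in dense windows were acetylated, against 24.8% in windows under 12 ATAC peaks, and between genes 21.4% against 15.5%. At gene ends the share was 71.5% in dense windows and 73.2% over all gene ends, so gene ends were no more often acetylated there. Distal peaks with H3K27ac were wider than those without, with medians of 276.5 and 163 bp in dense windows. Distal peaks as a whole had a median width of 188 bp in dense windows and 171 bp in windows under 12 ATAC peaks, and the part of peak width in the difference was not tested.

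Gene-poor and gene-rich windows differed most in where their open sites lay. Only 12.9% of the ATAC peaks of gene-poor windows were at a gene end, against 46.1% in gene-rich windows. Distal peaks inside genes made up 48.6% of the peaks of gene-poor windows and those between genes 38.5%. Of the H3K27ac peaks, 67.4% overlapped an ATAC peak in gene-poor windows and 84.2% in gene-rich windows, beside 68.6% over all H3K27ac peaks. The classes also differed in windows under 12 ATAC peaks, with 56.3% gene-poor and 83.8% gene-rich. With 10 or 11 ATAC peaks the shares were 67.75% and 83.8%. The windows were chosen by ATAC peaks, so this overlap is a description. Open sites of gene-poor windows were thus mostly distal, and the gene number that defines the classes bears on this directly.

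The share of distal peaks with H3K27ac did not differ steadily between the classes. It was 30.2% (28.1 to 32.4; 530 of 1753) in gene-poor and 26.6% (25.3 to 27.9; 1122 of 4221) in gene-rich windows, a difference of 3.65 points (1.15 to 6.21). With the window starts shifted by 100 kb the difference was -1.45 points (-3.85 to 1.02), so its sign depended on where the windows were cut. The median per window was 25.0% in both classes. Single windows ranged from 0 to 100%. No distal peak was acetylated in 116 windows (17.85%), 19 gene-poor (13.5% of that class) and 97 gene-rich (19.1%). That share was 58.85% over all windows with a distal peak and 34.4% over those with 10 or 11 ATAC peaks. It falls as windows hold more distal peaks, and the part of peak number was not tested. The median number of distal peaks was 9 in dense windows, 7 with 10 or 11 ATAC peaks and 2 over windows with an ATAC peak. At least 50% were acetylated in 121 windows (18.6%), 32 gene-poor (22.7%) and 89 gene-rich (17.5%). The share was 18.8% over all windows with a distal peak, many of which hold few such peaks and so reach 50% easily. It was 14.6% over windows with 10 or 11 ATAC peaks (12.6% gene-poor, 15.8% gene-rich).

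**Figure D2:**
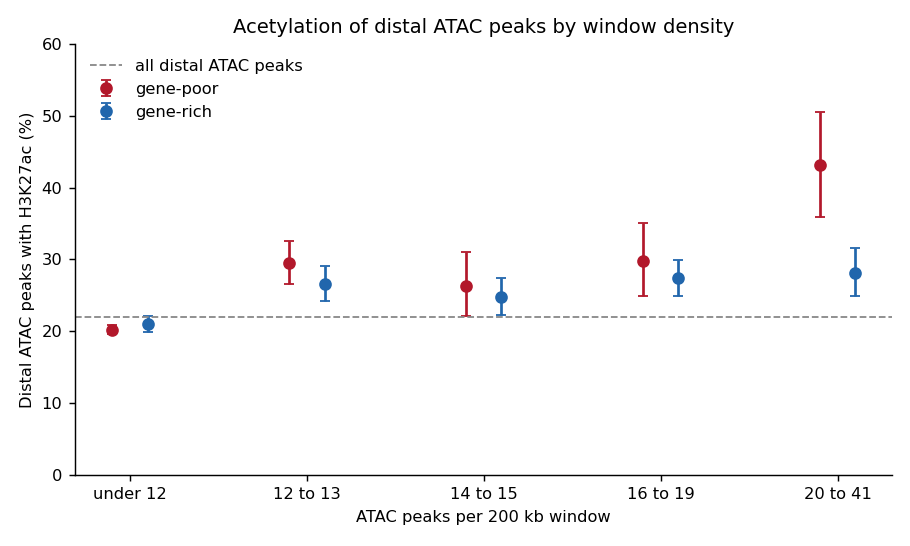
Points give the share of distal ATAC peaks that overlap H3K27ac (vertical axis, %) in windows grouped by their number of ATAC peaks (horizontal axis), for gene-poor (red) and gene-rich (blue) windows, with bars for 95% Wilson intervals and a dashed line for all distal ATAC peaks (21.9%). Both classes lie near 20% in windows under 12 ATAC peaks (20.2% gene-poor, 21.0% gene-rich) and above the line in every group of dense windows; the point at 43.1% rests on only 6 gene-poor windows with 174 distal peaks.

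Runx3 stood in the densest window of all (chr4:135000001-135200000, GRCm38). It was the only protein-coding gene there, with 41 ATAC peaks and 9 H3K27ac peaks, and 13 of 40 distal ATAC peaks were acetylated (32.5%, 20.1 to 48.0). The neighbouring windows held 10 and 17 ATAC peaks on the lower side and 9 and 9 on the upper side, and of their distal peaks only 1 of 32 was acetylated.

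The acetylation at Runx3 lay on both sides of its outer start. Of the 9 H3K27ac peaks, 6 lay before the outer start, with midpoints 40.2 to 111.8 kb away, and 3 inside the gene. The widest, 3012 bp, covered the inner start, whose promoter is printed above; its ATAC peaks count as distal because the start lies inside the annotated gene span. Between the neighbouring genes Syf2 and Clic4 there were 53 ATAC peaks, 13 of them acetylated, over 260.5 kb. The reporter carries Runx3 sequence on its BAC, and peaks from the BAC copies and from the chromosomal locus cannot be told apart. Without the Runx3 window and the dense window beside it, the acetylated share over all dense windows was 27.7%.

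Hrh1, a histamine receptor gene, shared the window with the next highest count but had almost no acetylation (chr6:114400001-114600000). It held 37 ATAC peaks and 1 H3K27ac peak, and 1 of 37 distal peaks was acetylated (2.70%, 0.479 to 13.8). In the gap between Hrh1 and Atg7, an autophagy gene, 45 ATAC peaks and 0 H3K27ac peaks lay along 136.7 kb. They were narrow, 101 to 278 bp with a median of 137 bp.

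These peaks were evenly spaced. The median distance between midpoints was 2450 bp, 34 of 44 distances were within 10% of it, and all 44 lay within 10% of the median from a whole multiple of it, 10 of them from a multiple of 2 or more. In the gap that holds Runx3 the median distance was 4010 bp and 4 of 52 distances were within 10% of it. The sequence under the even array was not examined here, and whether its peaks are separate sites was not tested.

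**Figure D3:**
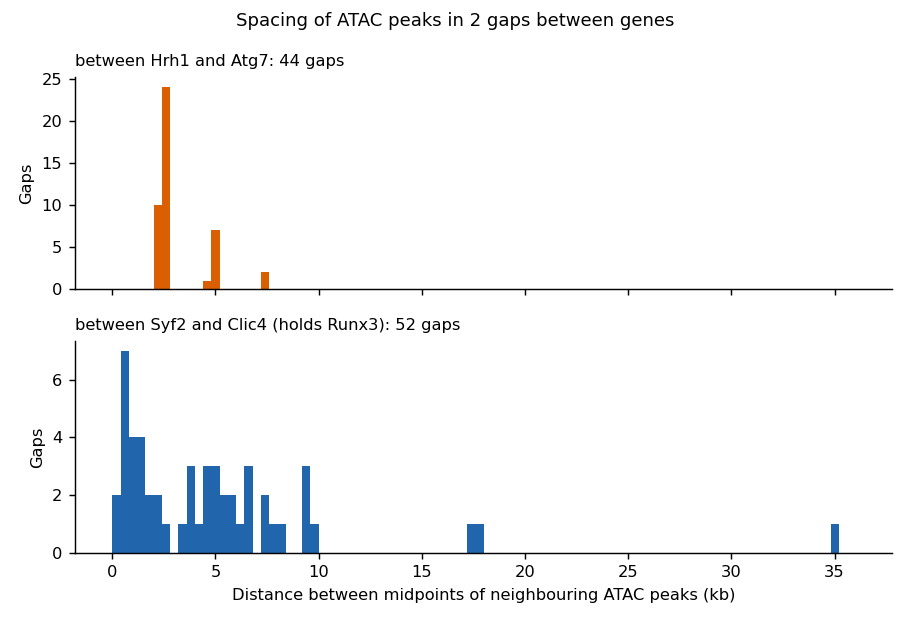
Histograms of the distance between midpoints of neighbouring ATAC peaks (horizontal axis, kb; vertical axis, number of gaps) for the gap between Hrh1 and Atg7 (44 gaps, top) and the gap between Syf2 and Clic4 that holds Runx3 (52 gaps, bottom). The distances at the top fall into narrow groups near 2450 bp and its multiples, and those at the bottom spread from 360 to 34944 bp.

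Cstad and 1700001O22Rik flanked the window with the most H3K27ac peaks (chr2:30600001-30800000). It held 24 ATAC and 18 H3K27ac peaks, and 18 of 23 distal ATAC peaks were acetylated (78.3%, 58.1 to 90.3). All 18 H3K27ac peaks had their midpoint between the genes, were 269 to 7040 bp wide and together covered 18.5% of the window. The acetylated sites of this window thus lay in a stretch without a protein-coding gene. The window also overlapped 8 long noncoding RNA genes and 1 microRNA gene, whose ends were not left out of the distal peaks.

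Gse1, which encodes a coiled-coil protein found with histone-modifying complexes, spanned 2 neighbouring dense windows. In the upper one (chr8:120400001-120600000, shared with Gins2, a DNA replication gene) there were 25 ATAC and 15 H3K27ac peaks, and 15 of 24 distal peaks were acetylated (62.5%, 42.7 to 78.8). The acetylated distal peaks include the ATAC peak at the inner start printed above, because that start lies inside the annotated gene span. In the lower one (chr8:120200001-120400000) there were 22 and 12, and 8 of 20 were acetylated. That window holds the outer end of Gse1, and 0 of 2 ATAC peaks at gene ends there were acetylated. Of the 15 H3K27ac peaks in the upper window, 14 had their midpoint inside Gse1. Unlike in the Cstad window, most acetylated sites here lay within a protein-coding gene.

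**Figure D4:**
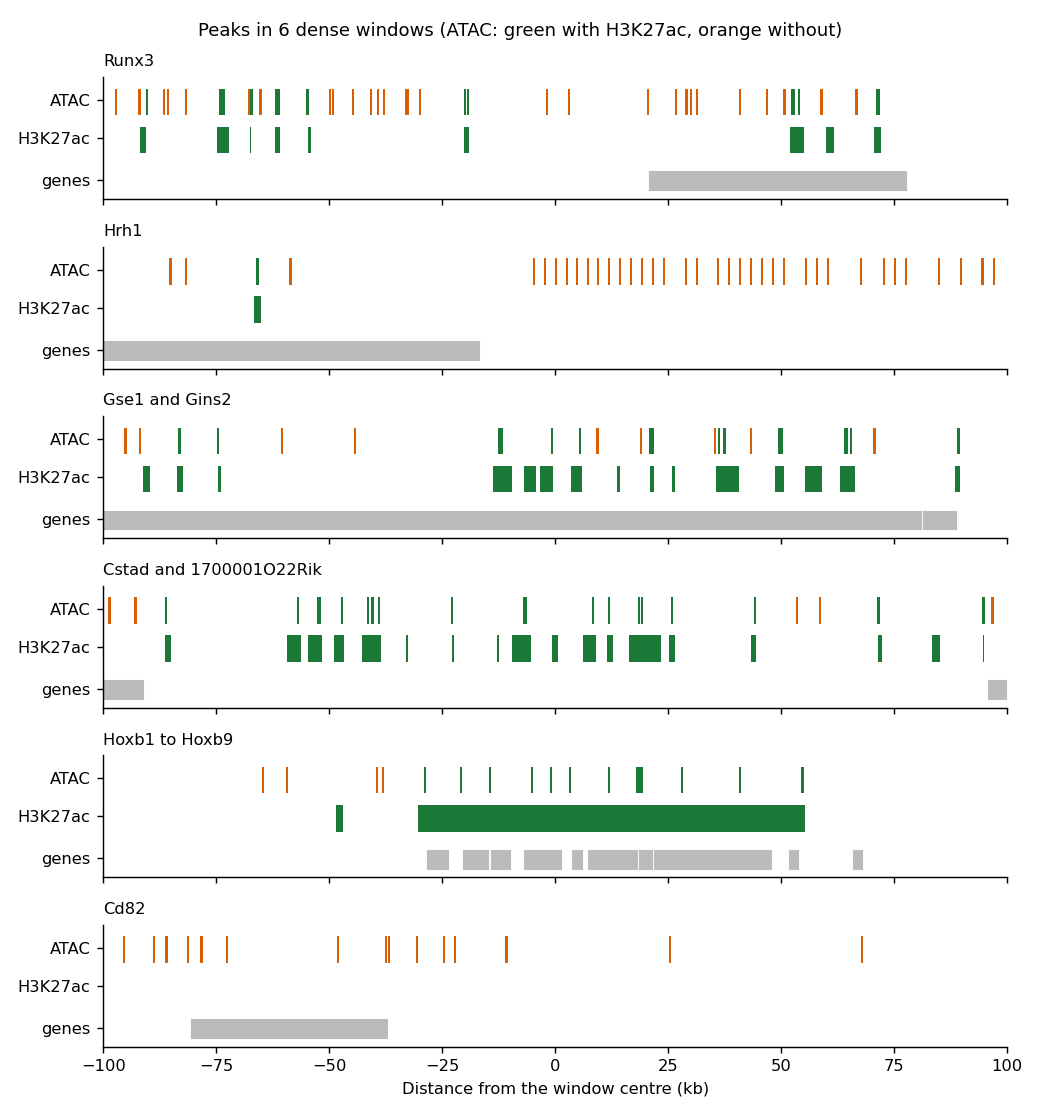
Maps of 6 dense windows, with distance from the window centre on the horizontal axis (kb) and rows for ATAC peaks, H3K27ac peaks and protein-coding genes (grey); ATAC peaks are green where they overlap H3K27ac and orange where they do not, and the narrowest are drawn slightly wider to be visible. The Runx3 window mixes both kinds, the Cd82 window is wholly and the Hrh1 window almost wholly orange, the Gse1 and Cstad windows are mostly green, and 1 H3K27ac peak of 85798 bp fills the middle of the Hoxb window.

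The other gene-poor windows among the 12 with the most ATAC peaks held 18 to 32. Cxxc5, a zinc-finger gene of Wnt and BMP signalling, shared a window on chromosome 18 with Ube2d2a and Psd2 that held 32 ATAC and 15 H3K27ac peaks, and 20 of 30 distal peaks were acetylated. The window of Kctd15, a gene of neural crest development, and Chst8 held 19 and 8 (8 of 18 acetylated; chr7:34600001-34800000), and that of Asxl1, a Polycomb-associated gene, and Nol4l held 18 and 10 (10 of 18; chr2:153400001-153600000). Zmynd8 and Ncoa3, encoding a chromatin reader and a nuclear receptor coactivator, shared a window of 18 and 8 (5 of 16) with the predicted gene LOC115489489. The window of Micall2, Ints1 and Mafk stood apart in this group, with 19 ATAC and 4 H3K27ac peaks and 0 of 14 distal peaks acetylated.

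The gene-poor windows with the highest share of acetylated distal peaks were those of Ptch1 and Maml3. Ptch1, the Hedgehog receptor gene, shared its window with Fancc (chr13:63400001-63600000). That window held only 4 H3K27ac peaks, and 1 of its 4 ATAC peaks at gene ends was acetylated. Of its distal peaks, 7 of 8 were acetylated (87.5%, 52.9 to 97.8). That of Maml3, a Notch coactivator, had 11 of 13 (84.6%, 57.8 to 95.7; chr3:52000001-52200000). Frmd4a, a gene of cell polarity, followed with 10 of 12, then the Cstad window, then Srebf1, Tom1l2 and Drc3 with 7 of 9, and Acot11 and Ssbp3 with 8 of 11. Each of these windows held 12 to 24 ATAC peaks, so their intervals are wide and overlap each other.

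At the other end, 19 of 141 gene-poor windows (13.5%) had 0 acetylated distal peaks. Besides the Micall2 window, those with the most ATAC peaks were Rhou (16 ATAC peaks, 0 of 14 distal acetylated), Cd82 (15, 0 of 12), Nfatc2 with Atp9a and Sall4 (15, 0 of 9), Sptssa with Eapp and Snx6 (15, 0 of 9) and Atf7 with Atp5g2 and Calcoco1 (15, 0 of 11). A share of 0 of 14 allows up to 21.5%. In the Sptssa, Atf7 and Rhou windows every ATAC peak at a gene end overlapped H3K27ac (6 of 6, 4 of 4 and 2 of 2), whereas in the Cd82 window 0 of 3 did. Windows without distal acetylation thus included some with acetylated gene ends.

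The 5 dense windows with no H3K27ac peak at all were those of Cd82 (15 ATAC peaks; chr2:93400001-93600000), a tetraspanin gene, of Gli2 (12; chr1:118800001-119000000), a transcription factor of Hedgehog signalling, and of Sez6l with Gm6588 (12; chr5:112400001-112600000). The other two were gene-rich: a chemokine window with Ccl27b, Ccl19, Ccl21a, Il11ra2 and Gm10591 (15; chr4:42600001-42800000) and a window of class I histocompatibility genes with H2-T24, H2-T23, H2-T22 and H2-T3 (14; chr17:36000001-36200000). The chemokine and histocompatibility genes belong to families of near-identical copies, so their peaks are uncertain. How the authors treated reads with several matches is not given in the sources used here.

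Only 4 dense windows held no protein-coding gene. The one on chromosome 4 (chr4:110000001-110200000) lay between Dmrta2, 16.3 kb away, and Elavl4, a neuronal RNA-binding protein gene 3.74 kb away. It held 12 ATAC and 6 H3K27ac peaks, and 8 of 12 distal peaks were acetylated (66.7%). The others had 1 of 14 acetylated beyond Foxl1 (chr8:121200001-121400000), 2 of 12 between Sdk2 and Rpl38 (chr11:114400001-114600000) and 1 of 13 on chromosome 8 (chr8:20000001-20200000). The last belongs to a stretch with 51 ATAC peaks, of which 5 were acetylated; those 5 were all 738 to 830 bp wide and 126.0 to 174.7 kb apart, while the others had a median width of 183 bp. The sequence under this stretch was not examined here, and whether its peaks are separate sites was not tested. Without the windows of this stretch and of the even array beside Hrh1, the acetylated share of all dense windows was 28.0%.

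The densest gene-rich windows held 26 to 31 ATAC peaks. That of the ephrin genes Efna1, Efna3 and Efna4, encoding ligands of Eph receptors, with 15 genes in all, had 31 ATAC and 13 H3K27ac peaks (chr3:89200001-89400000). A histone gene cluster with 18 genes had 31 and 15 (chr13:23400001-23600000). In both, 18 of the 31 ATAC peaks were at gene ends, and 4 of 13 and 3 of 13 distal peaks were acetylated, with intervals that include the share of all dense windows. Histone genes are near-identical copies, so their peaks are uncertain too.

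The window of Nfix, Klf1 and Junb had 28 ATAC and 14 H3K27ac peaks (chr8:84800001-85000000), and that of Jund, Rab3a and Mast3 had 26 and 11 (chr8:70600001-70800000). Tlx2, a homeobox gene of sensory and enteric neurons, stood with Lbx2 in a window of 18 genes with 27 and 16, and 7 of 11 distal peaks acetylated (chr6:83000001-83200000). The window of Draxin, an axon guidance gene, had 26 and 9 with 3 of 18 distal peaks acetylated (chr4:148000001-148200000), and that of Atf5, Akt1s1 and Irf3 had 26 and 12 with 5 of 9 (chr7:44800001-45000000). Gene-rich windows of like density thus ranged widely in distal acetylation.

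Hox windows were 4 of the 6 dense windows with the most bp under H3K27ac. Hox genes give body segments their identity along the head-to-tail axis, and 32 of 39 lay in 5 dense windows. The Hoxb window (chr11:96200001-96400000, Hoxb1 to Hoxb9) held 17 ATAC peaks and only 2 H3K27ac peaks. One of these was 85798 bp wide, overlapped 13 ATAC peaks and, with the other, covered 43.7% of the window, the most of any dense window. The Hoxc window (chr15:103000001-103200000, with Hoxc4, Hoxc5, Hoxc6, Smug1 and Cbx5) held 27 ATAC and 15 H3K27ac peaks covering 21.9%, with 10 of 23 distal peaks acetylated. The window of Hoxa3 to Hoxa13 held 13 ATAC and 3 H3K27ac peaks covering 17.8%, and the Hoxd window held 16 and 9. Where peaks were this wide, windows ranked differently by the number of H3K27ac peaks and by the bp they covered.

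Dense windows often adjoined each other. Of 650, 376 (57.9%) had a dense neighbour, forming 141 runs of 2 or more. A dense neighbour was present for 42.6% of gene-poor and 62.1% of gene-rich windows. Of all windows 5.34% were dense, but a window has a neighbour on each side, so these measures are unlike. The share of all windows with a dense neighbour was not computed. The longest run, 10 windows on chr10:79600001-81600000, held 218 ATAC and 93 H3K27ac peaks and 120 genes, among them Tcf3 and Onecut3, and 32 of 104 distal peaks were acetylated. The next, 8 windows on chr11:101000001-102600000 with Brca1, Etv4 and Hdac5, held 118 and 50 with 13 of 61 acetylated. The third, 7 windows on chr17:34800001-36200000 in the histocompatibility region, held 116 and 41 with 10 of 52.

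Runs of 6 windows lay around Six5 and Fosb (chr7:18800001-20000000, 10 of 56 distal peaks acetylated) and around Gatad2a and Homer3 (chr8:69800001-71000000, 7 of 39). Others lay around Fosl1 and Rela (chr19:5400001-6600000, 11 of 44) and around Taok2 and Maz (chr7:126800001-128000000, 15 of 31). In 5 of these 7 longest runs the share was 17.9 to 25.0%, below that of all dense windows, and in the runs with Tcf3 and with Taok2 it was 30.8% and 48.4%. By chromosome, 13.6% of the windows of chromosome 11 were dense, 10.3% of chromosome 19 and 9.35% of chromosome 7, down to 1.76% of chromosome 14, where 0 were gene-poor.

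Of 20665 protein-coding genes, 21.6% overlapped a dense window and 1.35% a gene-poor one. Immediate early genes, which respond fast to stimuli, were above this with 13 of 23, among them Junb, Jund, Fosb, Ier3, Fosl1 and Zfp36, as were housekeeping genes with 10 of 22 (Eef2, Rpl13a, Gapdh, Polr2a, Actb, Actg1). Both lists hold short genes, with median lengths of 4.29 and 4.74 kb, and only Fos and Ier5 of the former were in gene-poor windows. Clustered protocadherins, cell-surface proteins that give neurons individual identity, had 21 of 57, but all 21 overlapped the same window. Genes of 1 cluster share their windows, so the counts of the Hox and protocadherin lists are not independent.

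Among lists of sensory development, pan-sensory transcription factors had 10 of 28 in dense windows (35.7%, 20.7 to 54.2). The interval includes the 21.6% of all genes, and blood and immune genes had a like share (35.3%). Tlx2, Scrt2, Cbfb, Scrt1, Prdm12 and Pou4f2 stood in the windows with the most ATAC peaks, from 27 down to 13 per window. Ebf1, a factor of neuronal differentiation and was the only gene of a window (chr11:44600001-44800000) with more H3K27ac than ATAC peaks, 15 against 12, and 5 of 10 distal peaks acetylated. The window of Pou4f2, a sensory POU factor, held 3 genes, 5 H3K27ac peaks and 4 acetylated distal peaks of 7. That of Cbfb, the partner of Runx proteins, held 17 genes, 6 H3K27ac peaks and 0 of 4. Neurotrophin signalling had 7 of 17 (41.2%), with an interval from 21.61 to 63.99% that just includes the 21.64% of all genes. These were Bax and Bcl2l1 of cell death, the neurotrophin gene Ntf5, the receptor genes Ngfr and Sort1 and the adaptor genes Frs3 and Shc1. None of the TRK receptor genes was among them, and 1 of 8 distal peaks in the Ngfr window was acetylated.

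Genes of sensory subtypes were in dense windows at shares below that of all genes, in lists of few genes with wide intervals, but proprioceptor genes lay above it with a minimum of 15 ATAC peaks and with only the wider 50% of ATAC peaks. Of 20 proprioceptor genes, 3 were in dense windows: Runx3, and Etv4 and Whrn in windows of 15 ATAC peaks each, a share of 15.0% (5.24 to 36.0). Of 16 mechanoreceptor genes, Cux2 and Mafa were, and of 18 nociceptor and thermoreceptor genes, P2rx3 and Gfra3. Axon guidance genes had 3 of 31, Slit1, Cntn2 and Sema6a, although their median length was 276.4 kb against 17.5 kb for all genes, and longer genes meet more windows. The list does not hold every gene of this kind: Draxin, Efna1, Efna3, Efna4, Sema3b, Sema3f and Epha2, which were in dense windows, are not on it, so its count stands for these 31 genes alone. In the Cntn2 window, 6 of 8 distal peaks were acetylated, in the Sema6a window 6 of 11, and in the Slit1 window 2 of 15. Pan-neuronal genes had 5 of 25: Tubb3, Nhlh1, Elavl3, Myt1 and Celf4.

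Regulators of other kinds gave mixed shares. Developmental transcription factor families had 30 of 175 (17.1%), with Foxa3, Hes7 and Six5 in windows of 25 ATAC peaks. Corepressors and chromatin regulators had 7 of 24 in dense windows (29.2%, 14.9 to 49.2). Distal peaks were acetylated in 10 of 13 cases in the window of Bahcc1 and in 9 of 12 in the denser window of Kdm6b, while the windows of Zfpm1, Rcor2 and Hdac5 had 1 of 9, 3 of 6 and, in the denser of its windows, 4 of 11. Tle3, a Groucho corepressor, was the only gene in 2 windows, with 3 of 12 and 5 of 12.

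Lists of other cell types served as a comparison and were not absent. They are not wholly separate: Gfra3 and Ngfr of the glia and neural crest list are also counted in the nociceptor and neurotrophin lists above. Blood and immune genes had 6 of 17 (35.3%, 17.3 to 58.7), with Klf1, Cd4, Aif1, Hba-a1 and Lyl1 among them. Glia and neural crest genes had 6 of 20 (30.0%), with Erbb3, Gfra3, Gfap, Ngfr and Mbp among them. Dorsal spinal interneuron genes had 5 of 19 (26.3%): Wnt1, Gbx1, Wnt3a, Lbx1 and Lmx1b. Motor neuron and ventral spinal cord genes had 3 of 20 (Lhx3, Chat, Slc18a3), endothelial and mural genes 2 of 17 (Sox18, Cldn5) and skeletal muscle and sclerotome genes 2 of 21 (Tcf15, Meox1). Olfactory and vomeronasal receptors, large families of clustered genes used in the nose, had 14 of 1452 (0.964%). Klf1, of red blood cells, shared its window with Nfix and Junb, so a gene's place in a dense window does not say which of its genes the peaks belong to.

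**Figure D5:**
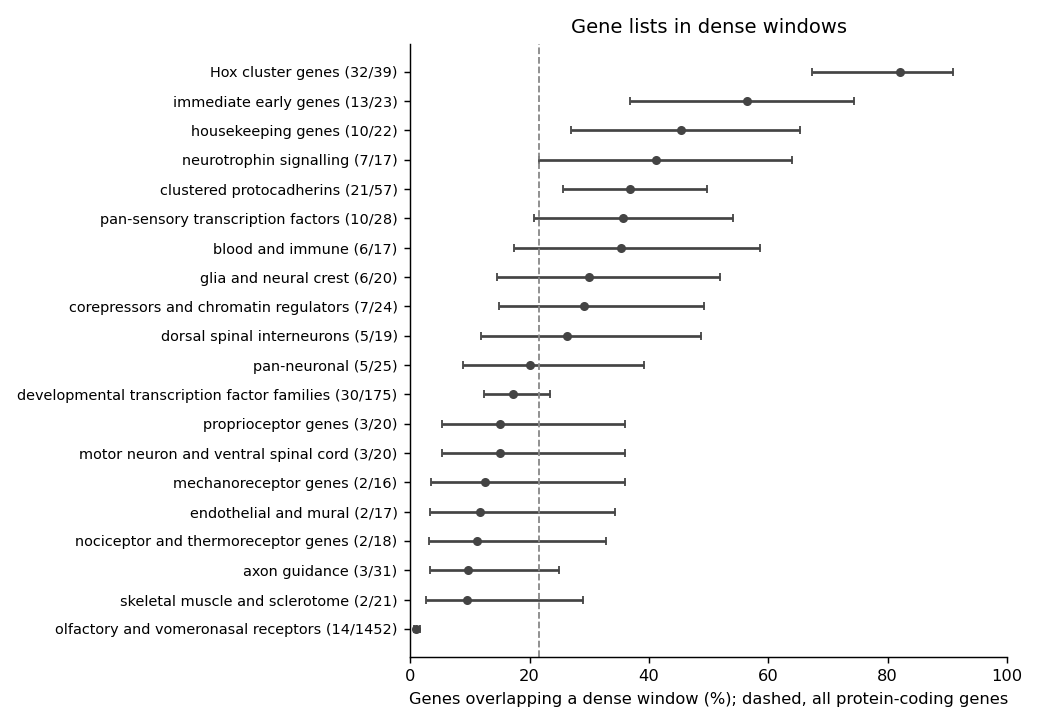
Share of each gene list that overlaps a dense window (horizontal axis, %), with 95% Wilson intervals, which cover counting error only and treat neighbouring genes as separate; counts stand beside the names, and the dashed line is the 21.6% of all protein-coding genes. Hox genes lie highest, at 32 of 39, olfactory and vomeronasal receptors lowest, and proprioceptor, mechanoreceptor and nociceptor genes lie below the line with intervals that include it, although with a minimum of 15 ATAC peaks the proprioceptor share was above that of all genes.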

How the data were processed

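ATAC-seq and H3K27ac ChIP-seq libraries were made from GFP-sorted E11.5 DRG neurons, with 2 replicates each. Per the submitters' processing notes, the tools named are bedtools, MACS2, Bowtie2 2.3.5.1 and cutadapt 1.18, with the mm10 build. The values deposited by the authors are peak start and end positions in bp, a unit of the class other, 1 consensus list per assay. Thresholds and how the consensus was formed are not given in the sources used here, and depth is unknown.

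Peaks on chromosomes 1 to 19 were used (42569 of 43739 ATAC, 19482 of 19928 H3K27ac), with overlap of at least 1 bp. The interval of a difference between shares combines the Wilson intervals of both. Windows run from the lowest to the highest with a peak or gene. Gene spans are those of 20665 RefSeq protein-coding genes (GRCm38.p6), without strand or exons. The genes of 20 lists were matched by symbol; 8 list entries lie outside these chromosomes, and the name pattern for transcription factor families was narrowed after it had also matched genes outside those families. The windows and lists were chosen with earlier results of these data known. Named are the genes of the 12 gene-poor and 8 gene-rich windows with the most ATAC peaks, of the 6 gene-poor windows with the highest and lowest distal share, of the longest runs and of windows without H3K27ac, and up to 6 members per list; some such genes and windows are not reported here, and the windows of Ebf1, of the gene-free stretches, of the chromosome 8 array and with most bp under H3K27ac were named after their values were seen. Python 3.11.15, numpy 2.4.6, pandas 2.3.3 and matplotlib 3.10.9 were used, and the window counts and shares were tested on simulated data.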

Additional observations from a re-analysis of the deposited data

How the results depend on the processing

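The lists hold no scores, so peak width stood in for a stricter threshold. No paired analysis was possible because each consensus list pools its replicates and holds no value per replicate. With only the wider 50% of ATAC peaks, 72 windows (5 gene-poor) reached 12 peaks, with a median of 10 H3K27ac peaks, 52.4% of distal peaks acetylated and a gene-poor minus gene-rich difference of 18.1 points. A minimum of 10 peaks gave 1137 windows (323 gene-poor), 25.9% and a difference of 1.45 (-0.406 to 3.33), and one of 15 gave 289 (40 gene-poor). With at most 1 or 5 genes, 40 or 267 windows were gene-poor. Only the wider 50% of H3K27ac peaks gave a median of 3 and 19.3%, gene ends of 0.5 kb gave 29.9% and a difference of 1.76 (-0.707 to 4.28), those of 2.5 kb gave 25.9% and a difference of 6.36, and 50% of the ATAC peak covered gave 24.8%. Window starts shifted by 100 kb gave 26.3% and reversed the difference, to -1.45; 84.5% of the dense windows overlapped a shifted dense window. Chosen after seeing the data, leaving out distal peaks on a RefSeq promoter gave 24.5% and a difference of 6.21. Leaving out the windows around Runx3, or those of the chromosome 6 and 8 arrays, left these values within the tolerance used. Of the 20 gene lists, 10 lay above the share of all genes, and 10 to 12 did under 7 settings added afterwards; 13 lists stayed on their side under all 7, and 7 changed side under at least 1. The cause of these shifts was not tested.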

Other observations

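The 2 gene-rich windows named here were chosen after their values were seen, and most of their distal ATAC peaks were acetylated. The window of Srsf1, a splicing factor gene, with Dynll2, Vezf1, Cuedc1 and Mrps23 (chr11:88000001-88200000) had 9 of 10 acetylated (90.0%, 59.6 to 98.2). That of Ptma, encoding the abundant nuclear protein prothymosin alpha, with Tex44, Pde6d and Cops7b (chr1:86400001-86600000) had 11 of 15 (73.3%). Among the gene-poor windows, Bach2, a transcription factor gene alone in its window (chr4:32200001-32400000), had 15 H3K27ac peaks, of which 10 overlapped no ATAC peak, and 8 of 12 distal peaks acetylated. The window of Rbfox2, a neuronal splicing factor gene, and Apol7a (chr15:77200001-77400000) had 16 H3K27ac peaks, 7 of them without ATAC, and 9 of 14 distal peaks acetylated.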
